A study of Saccharomyces kudriavzevii and Saccharomyces cerevisiae and Kluyveromyces marxianus with 12 samples.

Results

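The genes described are 9 stress transcription factors of budding yeast (HSF1, MSN2, MSN4, YAP1, SKN7, GIS1, RPH1, CRZ1 and HOT1) and the coactivator gene MBF1. They were chosen by name, for the known function of their products and by no rule on their values, though with earlier results of these data known. They are 10 of the 6017 genes counted in *S. cerevisiae*. Poly(A) RNA was sequenced from *S. cerevisiae* BY4742, a laboratory strain of mating type alpha that carries deletions in URA3, LEU2, HIS3 and LYS2, treated for 8 minutes at 33 °C (control) or 40 °C (heat shock), with 2 biological replicates per condition. The cold-adapted relative *S. kudriavzevii* FM1389, which the study lists as mating type alpha with HO, URA3 and HIS3 deleted, was treated for 8 minutes at 24 °C or 31 °C, again with 2 replicates per condition, and its labels name 34 °C as the growth temperature in place of 24 °C. Both species grew in YPD with 2% dextrose to an OD600 between 0.2 and 0.4 before treatment. Each species is represented by a single strain. The series also holds 4 libraries of *K. marxianus*, which were not analysed here.

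Hsf1 is the essential heat shock factor, which binds as a trimer to inverted repeats of the bases GAA and drives the chaperone genes. Msn2 and Msn4 are a pair of zinc finger activators that protein kinase A keeps out of the nucleus in growing cells and that bind the stress response element AGGGG of many genes once released. Yap1 and Skn7 serve the oxidative stress response, Gis1 and Rph1 are related proteins with a Jumonji domain and zinc fingers, Crz1 acts downstream of calcineurin, Hot1 is recruited by the osmotic stress kinase Hog1, and Mbf1 bridges the activator Gcn4 and the TATA-binding protein. These factors are best known for control at the level of the protein (phosphorylation, nuclear entry, oxidation of cysteines), so that the amount of their mRNA and their activity are separate quantities, and only the mRNA was measured here.

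At the level of mRNA the 10 genes did not respond alike. In *S. cerevisiae* MBF1 rose 2.93-fold, GIS1 1.99-fold, HSF1 1.85-fold, YAP1 1.59-fold and RPH1 1.29-fold at 40 °C, SKN7 and HOT1 fell to 0.669 and 0.807 of the control, and MSN2, MSN4 and CRZ1 were not called. In *S. kudriavzevii* only MBF1 and YAP1 were called, with rises of 9.89-fold and 3.29-fold. A gene is called where the Benjamini-Hochberg adjusted p of edgeR's quasi-likelihood test was under 0.05. Since 33.7% of the 5786 *S. cerevisiae* genes tested were called higher and 32.7% lower, the counts of 5 and 2 among 10 genes are read gene by gene and not as a property of the group. Genes called higher made up 50.7% of all calls in this species, and 67.9% when the test was run on log2 TPM. In *S. kudriavzevii* 10.5% of 5490 genes were called higher and 13.1% lower, so that higher genes made up 44.5% of the calls, or 30.02% of them by library totals alone.

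The libraries of *S. cerevisiae* held 18911098 to 23476002 reads on genes, and those of *S. kudriavzevii* 22201483 to 28644781. The strain labels were checked against the deletions of BY4742: LEU2, LYS2 and URA3 had 0 counts in every *S. cerevisiae* library, while HIS3, of which this strain lacks only a part, had 1633 to 3494. MF(ALPHA)1, the alpha pheromone gene, had 1519 to 42770 counts there, and the a-factor genes MFA1 and MFA2 had 25 to 75. In *S. kudriavzevii* the HIS3 ortholog had 0 counts in every library and the URA3 ortholog, listed as deleted, 39 to 143. Against the listed mating type, the MF(ALPHA)1 ortholog of *S. kudriavzevii* had 78 to 108 counts, where MFA1 had 1308 to 3199 and MFA2 3115 to 8457. These orthologs were named by gene order and length. The control replicates of *S. kudriavzevii* stood apart from each other, with a median gap of 0.47 on the log2 scale over all genes, against 0.18 between its heat shock replicates and 0.15 and 0.09 in the control and heat shock replicates of *S. cerevisiae*. TMM scaling factors were 1.26 in control 1 and 0.951 in control 2 of *S. kudriavzevii*, and 0.977 to 1.03 in the *S. cerevisiae* libraries. In *S. kudriavzevii* the TPM of all 10 genes was lower in control 2 than in control 1. For the 10 genes in *S. kudriavzevii*, values with single libraries left out are therefore given beside the results. All values are relative to the sequenced mRNA, and RNA per cell was not measured.

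All 10 genes are single-exon in the R64 annotation of *S. cerevisiae*, and no other coding sequence overlaps any of them, so reads counted without strand cannot come from a second coding sequence. HSF1 (YGL073W) lies on chromosome VII from 368753 to 371254, MSN2 (YMR037C) on XIII from 344403 to 346517, MSN4 (YKL062W) on XI from 323228 to 325120, YAP1 (YML007W) on XIII from 253848 to 255800 and SKN7 (YHR206W) on VIII from 512732 to 514600. GIS1 (YDR096W) lies on IV from 637139 to 639823, RPH1 (YER169W) on V from 523369 to 525759, CRZ1 (YNL027W) on XIV from 579580 to 581616, HOT1 (YMR172W) on XIII from 605981 to 608140 and MBF1 (YOR298C-A) on XV from 877230 to 877685. MSN2 and MBF1 are on the minus strand. MBF1 encodes by far the smallest protein, with 151 residues, and the other 9 range from 622 residues (SKN7) to 894 (GIS1).

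The promoters were searched for the elements that these same factors are known to bind. The window ran from 250 bases before to 50 bases after the start codon, on both strands of R64. Heat shock element pairs were searched as GAANNTTC, found in 11.8% of 6001 promoters, and TTCNNGAA, in 12.9%. The stress response element AGGGG was found in 21.6%, the post-diauxic shift element AGGGAT, bound by Gis1, in 9.33%, the Yap1 element TTACTAA in 7.45%, its variant TGACTAA in 3.62% and the Crz1 element GAGGCT in 7.03%. AGGGG and AGGGAT share their first letters but cannot match at the same start. MBF1 carried TTCNNGAA 175 to 168 bases and AGGGG (on the other strand) 161 to 157 bases before its start codon. HSF1, GIS1 and HOT1 held no match to any of these letters, and 7 of the 10 genes held at least 1. The share of all promoters with at least 1 match was not counted, so the 7 are not read as a property of the group. The stretch of the MBF1 promoter from 250 to 101 bases before the start codon, on the strand of the gene (minus), is printed because MBF1 changed most in both species, with matches in capitals:
MBF1, chrXV:877786-877935: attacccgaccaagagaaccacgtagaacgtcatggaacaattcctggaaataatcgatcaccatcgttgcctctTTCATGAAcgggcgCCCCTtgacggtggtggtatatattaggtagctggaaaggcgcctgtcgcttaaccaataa

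Windows of 30 bases around the matches of 5 further genes are given on the strand of each gene, with the match in capitals, to show which element each promoter holds. A run that reads CCCCT is AGGGG on the other strand, and ATCCCT is AGGGAT. MSN2 has the heat shock element in the first line and a Crz1 element in the second, and SKN7 has its Yap1 element 246 to 240 bases and its post-diauxic shift element 227 to 222 bases before the start codon.
MSN2, chrXIII:346632-346661: tcctcatatttTTCGGGAAgatcacaacag
MSN2, second site, chrXIII:346588-346617: ttcatacgccaaGAGGCTacctttttttct
MSN4, chrXI:323141-323170: aattaaaacgtGAAATTTCctttttgaata
YAP1, chrXIII:253733-253762: ttttttcctgagCCCCTggttgacttgtgc
RPH1, chrV:523231-523260: ttattttaaaatAGGGGgacttaacctttc
SKN7, chrVIII:512482-512511: agttTTACTAAcattacacagatatccctg
SKN7, second site, chrVIII:512493-512522: cattacacagatATCCCTggtcaccttact

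CRZ1 held a heat shock element pair 27 to 20 bases before its start codon. Genes with a match included ones that rose (MBF1, YAP1, RPH1), one that fell (SKN7) and ones that were not called (MSN2, MSN4, CRZ1), and of the 3 genes without a match HSF1 and GIS1 rose and HOT1 fell. A match is a run of letters and not a measured binding site.

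Levels of different genes were compared per length, as TPM (counts divided by gene length and scaled to one total in every library). In the *S. cerevisiae* controls MBF1 stood at 793 ± 12.1 TPM (SD, n = 2), above 96.03% of genes, and no other gene of the group exceeded the 47.1 ± 1.40 TPM of YAP1. SKN7 (45.3 ± 6.86), MSN4 (36.1 ± 0.852), MSN2 (34.2 ± 2.97) and HSF1 (29.2 ± 0.0959) followed, then HOT1 (20.3 ± 0.309), CRZ1 (19.4 ± 1.82), RPH1 (17.3 ± 1.10) and GIS1 (11.7 ± 0.320). Neighbours whose replicates overlapped in this order were YAP1 and SKN7, MSN4 and MSN2, and HOT1 and CRZ1. The DNA-binding factors thus lay between the percentiles 24.4 and 65.7 of the genome, and the coactivator stood alone among the abundant mRNAs.

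After heat shock the order in *S. cerevisiae* changed below the top. MBF1 reached 2766 ± 381 TPM, above 99.2% of genes, and YAP1 89.6 ± 1.72. HSF1 moved from the sixth to the third place at 64.5 ± 0.283 TPM, SKN7 from the third to the sixth at 36.04 ± 1.02, and GIS1 from the last to the seventh at 27.6 ± 0.856. HOT1 came last at 19.5 ± 0.920 TPM. Only GIS1 and RPH1 (26.6 ± 1.38) overlapped in the new order.

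In *S. kudriavzevii* MBF1 was again first, at 410 ± 55.6 TPM in the controls and 3724 ± 72.2 after heat shock. Below it each neighbour overlapped the next in the controls, from YAP1 at 33.0 ± 18.0 TPM to GIS1 at 8.92 ± 3.57, although both controls of YAP1, SKN7, MSN2 and MSN4 lay above both controls of HOT1, RPH1 and GIS1. After heat shock YAP1 (92.7 ± 22.4), MSN2 (42.6 ± 2.14), MSN4 (19.2 ± 2.76), CRZ1 (14.3 ± 0.848) and RPH1 (3.71 ± 0.456, above 8.02% of genes) stood apart from their neighbours, with RPH1 last, and HSF1 overlapped SKN7 and HOT1 overlapped GIS1.

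**Figure D1:**
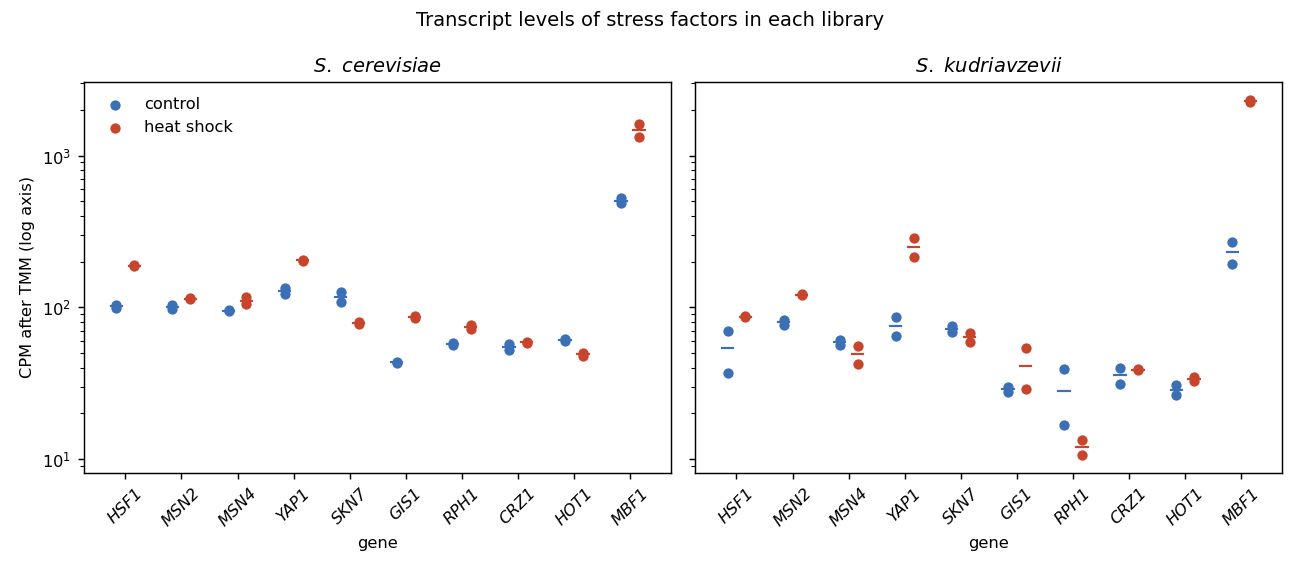
Level of each gene in every library, as CPM after TMM on a log axis, in *S. cerevisiae* (left) and *S. kudriavzevii* (right); points are libraries, blue for control and red for heat shock, and short lines are means of 2. The conditions are separate for every gene in *S. cerevisiae*, while GIS1 and CRZ1 overlap in *S. kudriavzevii*, where MBF1 goes from 194 and 267 to 2249 and 2319 CPM.

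In the comparison of conditions, values are CPM, counts scaled to the library size after TMM. None of the 10 genes had overlapping conditions in *S. cerevisiae*, and 8 had none in *S. kudriavzevii*, against 85.4% and 65.6% of all genes tested. With 2 libraries per condition a gap between the conditions is therefore the usual case, and the adjusted p of the fit across all genes was used for each call.

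HSF1, the heat shock factor itself, rose in *S. cerevisiae*. Its control libraries stood at 103.9 and 99.2 CPM and its heat shock libraries at 186.2 and 189.9 CPM. The log2 fold change was 0.89 ± 0.0817 (SE), with an adjusted p of 0.000102 in edgeR's quasi-likelihood test, and this lies above 86.0% of genes. In *S. kudriavzevii* HSF1 (SKDZ_07G1840) stood at 70.0 and 37.1 CPM in the controls and 87.1 and 86.1 CPM after heat shock. Both heat shock libraries were above both controls, but the controls differed from each other by 0.92 on the log2 scale, more than 83.6% of genes did, and the log2 fold change of 0.69 ± 0.345 was not called (adjusted p 0.193). This value rests on the controls: it was 1.23 without control 1 and 0.34 without control 2. Whether it was called depended on the library left out. Between the species the difference of -0.21 ± 0.370 (adjusted p 0.750) was not called.

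MSN2 and MSN4 moved little in *S. cerevisiae*. MSN2 had 96.9 and 104.0 CPM in the controls and 113.5 and 114.6 CPM at 40 °C, a log2 fold change of 0.18 ± 0.0837 (adjusted p 0.0920). MSN4 had 95.8 and 94.0 CPM in the controls and 116.1 and 105.6 CPM at 40 °C, a log2 fold change of 0.22 ± 0.0893 (adjusted p 0.0619). For both genes every heat shock library was above every control, by less than the test asks. In other fits MSN2 was called without control 2 (0.24, adjusted p 0.0391) and both were called on the log2 TPM scale (0.43 and 0.46), on which the median of all genes was 0.26 in place of 0.03.

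In *S. kudriavzevii* the pair went apart in value. MSN2 (SKDZ_13G1690) had 77.0 and 82.4 CPM in the controls and 121.8 and 120.2 CPM at 31 °C. Its log2 fold change was 0.60 ± 0.263 (adjusted p 0.142), and 0.69 without control 2. The call of MSN2 depended on the library left out. MSN4 (SKDZ_11G1450) had 56.6 and 61.1 CPM in the controls and 42.6 and 55.4 CPM at 31 °C, a log2 fold change of -0.26 ± 0.272 (adjusted p 0.521, and from -0.47 to -0.09 with single libraries left out). Neither was called in the main fit, and neither species difference was (0.40 ± 0.204, adjusted p 0.253 for MSN2 and -0.51 ± 0.247, adjusted p 0.228 for MSN4). Without control 2 of *S. kudriavzevii* the MSN2 difference was 0.58, and its call too depended on the library left out.

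The split of mRNA within the pair was read from TPM. MSN4 supplied 52.5% and 50.3% of the summed MSN2 and MSN4 TPM in the *S. cerevisiae* controls and 53.3% and 50.7% after heat shock. This is close to an even split in every library. In *S. kudriavzevii* the share of MSN4 was 45.2% and 45.4% in the controls and 28.2% and 34.0% after heat shock, lower in both heat shock libraries than in both controls. No test was run on this share.

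YAP1, which encodes the activator of the thioredoxin and glutathione genes, rose in both species. In *S. cerevisiae* it went from 133.8 and 121.9 CPM to 205.3 and 202.5 CPM, a log2 fold change of 0.67 ± 0.0881 (adjusted p 0.000557). In *S. kudriavzevii* (SKDZ_13G1270) it went from 86.9 and 64.3 CPM to 284.5 and 213.5 CPM, a log2 fold change of 1.72 ± 0.323 (adjusted p 0.00715). The call in *S. kudriavzevii* was lost without heat shock 1 (1.50, adjusted p 0.0610) and when library totals replaced TMM (1.42, adjusted p 0.0504). The rise was larger by 1.03 ± 0.299 in *S. kudriavzevii*, which missed the threshold (adjusted p 0.0707). This difference was 1.31 without control 1 and 0.96 without control 2 of that species.

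SKN7, whose product shares the DNA-binding fold of Hsf1 and acts with Yap1, was lower after heat shock in *S. cerevisiae*. It had 107.7 and 126.9 CPM in the controls and 79.5 and 77.4 CPM at 40 °C, a log2 fold change of -0.58 ± 0.106 (adjusted p 0.00276). On the log2 TPM scale it was -0.31 and not called (adjusted p 0.0548). In *S. kudriavzevii* (SKDZ_08G2520) 74.8 and 69.1 CPM compared with 67.4 and 59.4 CPM, and the log2 fold change of -0.18 ± 0.262 was not called (adjusted p 0.658, and from -0.28 to -0.09 with single libraries left out).

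GIS1 and RPH1 are the other related pair, known for repressing or activating nutrient-responsive genes and, for Rph1, for removing methyl groups from histone H3. GIS1 rose in *S. cerevisiae* from 43.8 and 43.3 CPM to 87.7 and 85.1 CPM, a log2 fold change of 0.99 ± 0.105 (adjusted p 0.000205). RPH1 rose from 56.1 and 58.3 CPM to 76.3 and 71.9 CPM, a log2 fold change of 0.37 ± 0.107 (adjusted p 0.0195). The RPH1 call did not survive the loss of either heat shock library (adjusted p 0.116 without heat shock 1 and 0.0769 without heat shock 2). Of the summed TPM of the pair, RPH1 made up 59.0% and 60.2% in the controls and 49.4% and 48.7% after heat shock.

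In *S. kudriavzevii* neither gene of this pair was called. GIS1 (SKDZ_04G3190) had 29.8 and 27.8 CPM in the controls and 28.8 and 53.9 CPM after heat shock. The conditions overlapped, and the log2 fold change of 0.52 ± 0.338 (adjusted p 0.305) was -0.0030 without heat shock 2. RPH1 (SKDZ_05G2500) had 38.9 and 16.9 CPM in the controls and 10.7 and 13.5 CPM after heat shock (log2 fold change -1.21 ± 0.409, adjusted p 0.0678). The gap between its control libraries, 1.21 on the log2 scale, was wider than that of 95.0% of genes. Without control 2 the log2 fold change was -1.66 and without control 1 it was -0.48. RPH1 had the largest species difference that missed the threshold, -1.60 ± 0.472 (adjusted p 0.0727). That difference was -0.83 without control 1 and -1.95 without control 2 of *S. kudriavzevii*. RPH1 made up 59.8% and 40.9% of the summed TPM of the pair in the *S. kudriavzevii* controls and 29.7% and 22.2% after heat shock.

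**Figure D2:**
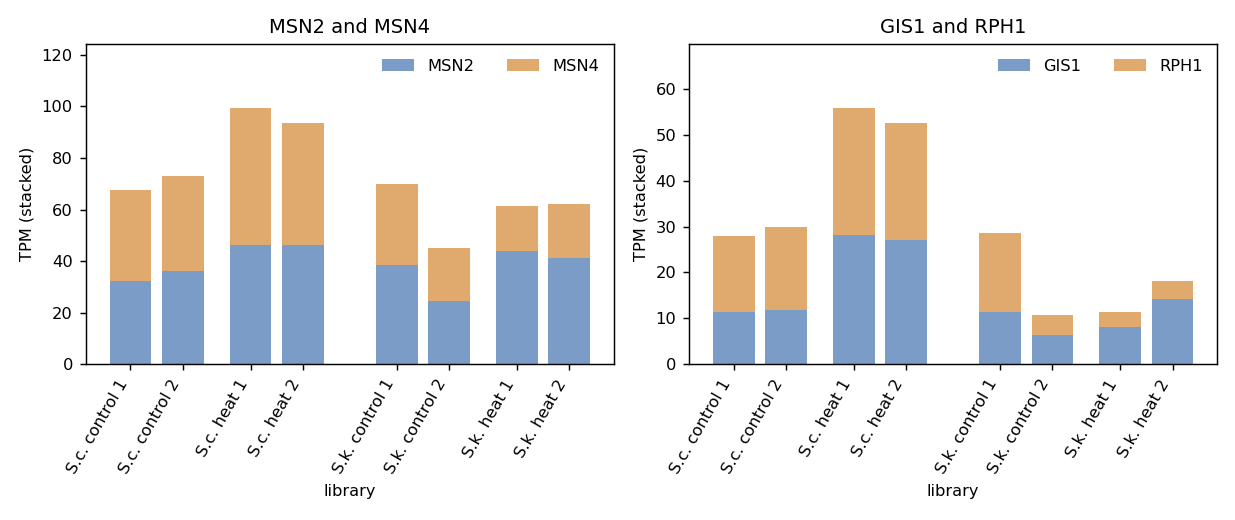
Stacked TPM of MSN2 and MSN4 (left) and of GIS1 and RPH1 (right) in each library of *S. cerevisiae* (S.c.) and *S. kudriavzevii* (S.k.). MSN4 holds 50.3% to 53.3% of its pair in every *S. cerevisiae* library, and RPH1 falls to 29.7% and 22.2% of its pair in the heat shock libraries of *S. kudriavzevii*.

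CRZ1 and HOT1, which answer to calcium and to osmotic stress, moved little. CRZ1 had 52.5 and 56.9 CPM in the *S. cerevisiae* controls and 59.2 and 58.1 CPM after heat shock (log2 fold change 0.10 ± 0.108, adjusted p 0.435). In *S. kudriavzevii* (SKDZ_14G2930) its conditions overlapped, with 40.1 and 31.1 against 39.4 and 38.4 CPM and a log2 fold change of 0.13 ± 0.265 (adjusted p 0.766, and from -0.0076 to 0.33 with single libraries left out). HOT1 was lower in *S. cerevisiae*, with 61.8 and 59.95 CPM in the controls and 50.4 and 47.8 CPM after heat shock (log2 fold change -0.31 ± 0.104, adjusted p 0.0348). This call was lost without heat shock 1 (adjusted p 0.101), without heat shock 2 (adjusted p 0.186), with library totals (adjusted p 0.0583) and on the log2 TPM scale (-0.05, adjusted p 0.645). HOT1 of *S. kudriavzevii* (SKDZ_13G2980) had 30.7 and 26.3 CPM in the controls and 34.7 and 32.7 CPM after heat shock (log2 fold change 0.24 ± 0.257, adjusted p 0.535, and from 0.17 to 0.37 with single libraries left out). Its species difference was 0.53 ± 0.206 (adjusted p 0.145), with 0.70 without control 1 and 0.56 without control 2 of *S. kudriavzevii*. Not called in the main test, this difference was called or not depending on the library left out.

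MBF1 had the largest rise of the group in both species. In *S. cerevisiae* it went from 521.1 and 484.3 CPM to 1317 and 1624 CPM, a log2 fold change of 1.55 ± 0.133 (adjusted p 7.54e-05) that lies above 93.8% of genes. Its heat shock replicates differed by 0.30 on the log2 scale, more than 90.6% of genes did, and both were far above the controls. In *S. kudriavzevii* (SKDZ_15G4350) it went from 194.2 and 267.4 CPM to 2249 and 2319 CPM, a log2 fold change of 3.31 ± 0.513 (adjusted p 0.00284) that lies above 98.8% of genes. With any 1 library left out, the log2 fold change ranged from 1.37 to 1.69 in *S. cerevisiae* and from 3.10 to 3.59 in the other species.

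Of the 10 genes, MBF1 was the only one whose response differed between the species by edgeR's quasi-likelihood test of the interaction, where 9.70% of 4773 orthologs were called. Its log2 fold change was larger in *S. kudriavzevii* by 1.74 ± 0.367 (adjusted p 0.0274). The *S. kudriavzevii* libraries started lower and ended higher, at 410 ± 55.6 and 3724 ± 72.2 TPM against 793 ± 12.1 and 2766 ± 381 TPM in *S. cerevisiae*. The difference stayed between 1.58 and 2.12 when single libraries were left out, but the call held only where the library left out was a *S. kudriavzevii* control. This was not particular to MBF1. Over all orthologs, calls became more numerous without either *S. kudriavzevii* control and fewer without any other library. The species were not treated at the same temperatures, so species and temperature cannot be told apart.

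**Figure D3:**
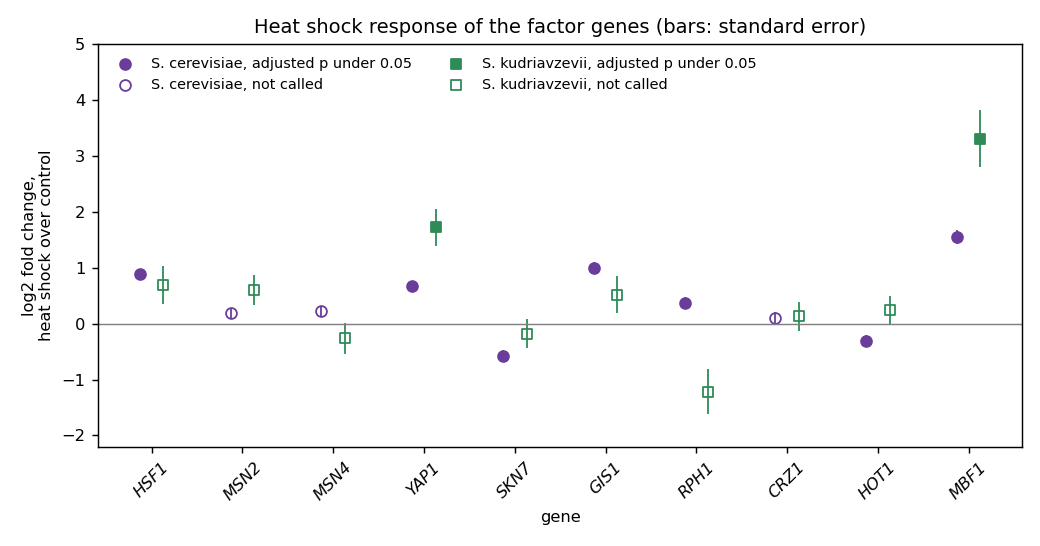
Log2 fold change, heat shock over control, of each gene in *S. cerevisiae* (circles) and *S. kudriavzevii* (squares), with bars of 1 standard error from edgeR; filled symbols have an adjusted p under 0.05. MBF1 is highest in both, at 1.55 and 3.31, and the bars of *S. kudriavzevii* are wider for every gene.

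Known target genes of the factors were set beside the factors themselves, as counts and medians without a test of the lists. For every list below, the shares over all genes were 33.7% higher and 32.7% lower in *S. cerevisiae* and 10.5% and 13.1% in *S. kudriavzevii*. The lists were chosen with earlier results of these data known, so counts within them describe the lists and test no factor. Among 24 Hsf1 targets all 24 were called higher in *S. cerevisiae*, with a median log2 fold change of 2.71 against 0.03 over all genes. The largest rises were those of SSA4, an inducible Hsp70 (7.05, from 75.6 and 65.4 to 8374 and 10267 CPM), and HSP26, a small heat shock protein that Hsf1 and Msn2/4 both drive (5.96, from 499.1 and 187.8 to 21473 and 21128 CPM). Of the 23 with an ortholog in *S. kudriavzevii*, 21 rose and none fell, with a median of 4.10 against -0.04 over all genes, and SSA4 and HSP26 stood at 10.05 and 9.49. The HSF1 mRNA itself moved by 0.89 and 0.69.

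All 24 Msn2/4 targets were called higher in *S. cerevisiae*, with a median of 3.66, although neither MSN2 nor MSN4 was called in the main fit. HSP12, a membrane-associated small stress protein, and ALD3, an aldehyde dehydrogenase, rose most (6.85 and 6.18). In *S. kudriavzevii* 21 of 23 rose, with a median of 3.21 and HSP12 at 8.21. These counts were 24 of 24 for both lists under all 11 alternative fits in *S. cerevisiae*, and lay between 15 and 23 for Hsf1 targets and between 19 and 21 for Msn2/4 targets in *S. kudriavzevii*.

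Of the 13 targets of Yap1 and Skn7, 5 rose and 3 fell in *S. cerevisiae*, shares near the 33.7% and 32.7% of all genes, with a median of 0.16, and in *S. kudriavzevii* 1 of 12 rose and none fell, with a median of 0.50. SRX1, the sulfiredoxin gene (2.51, from 12.8 and 4.6 to 55.0 and 42.6 CPM), and AHP1, a peroxiredoxin gene (1.77), rose most in *S. cerevisiae*, and GPX2, a glutathione peroxidase gene (-1.45), and FLR1, a drug efflux pump gene (-0.42), fell most. Without either heat shock library of *S. cerevisiae* 3 were called higher, and without heat shock 2 only 1 lower. AHP1 was the gene that rose in *S. kudriavzevii* (2.42), where YAP1 mRNA had risen 3.29-fold, and its call was lost without control 1 or either heat shock library, while 3 targets were called without control 2. Of 5 Crz1 targets, PMC1, the vacuolar calcium pump gene, rose (0.91) and PMR1, its Golgi counterpart, fell (-0.42) in *S. cerevisiae*, and of 4 none was called in *S. kudriavzevii*. All 3 Hot1 targets rose in *S. cerevisiae*, most of all the glycerol synthesis genes GPP2 (1.57) and GPD1 (1.48), while HOT1 mRNA fell, and GPP2 (2.13) and GPD1 (2.09) also rose in *S. kudriavzevii*.

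Genes that act upstream of the factors were taken next. Of 20 regulators of Msn2/4, 15 rose and 3 fell in *S. cerevisiae*, where 33.7% of all genes were called higher and 32.7% lower. In *S. kudriavzevii* 5 rose and 2 fell, against 10.5% and 13.1% of all genes. The medians were 0.54 in both species, against 0.03 and -0.04 over all genes. The *S. kudriavzevii* counts were 8 higher without control 2 and 0 lower without either heat shock library. PDE1, a phosphodiesterase that breaks down cAMP, rose by 2.01 in *S. cerevisiae* and was not called in *S. kudriavzevii* (0.70, adjusted p 0.0873), and the species difference of -1.33 was called (adjusted p 0.0127). IRA2, which inactivates Ras, rose by 1.81 and 2.80. RAS1, a small GTPase that activates adenylate cyclase, and TPK3, a catalytic subunit of protein kinase A, fell in both species, by values of -2.04 and -0.89 in *S. cerevisiae* and -1.44 and -1.08 in the other.

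Among 5 regulators of Yap1 and Skn7, HYR1, which encodes the peroxidase that senses peroxide for Yap1, rose by 0.95 and CRM1, the nuclear export receptor, by 0.37 in *S. cerevisiae*, while SLN1, the osmosensor kinase upstream of Skn7 and Hog1, was lower by a log2 fold change of -0.61. None of the 5 was called in *S. kudriavzevii*. Of 6 genes of calcineurin and its regulators, RCN2, a calcineurin regulator (1.66), and CMP2, a catalytic subunit (0.59), rose in *S. cerevisiae* and CNA1, the other catalytic subunit (-0.65), fell, and RCN2 (1.87) and CNA1 (-1.24) were called in the same directions in *S. kudriavzevii*. The Hog1 kinase pathway had 4 of 10 genes higher and 3 lower in *S. cerevisiae*, again near the 33.7% and 32.7% of all genes. SSK1 (0.91) and PBS2 (0.53) were at the top and the osmosensor genes SHO1 (-1.54) and SLN1 (-0.61) at the bottom. In *S. kudriavzevii* none of these was called, and 1 other gene was higher (STE50, 0.94) and 1 lower (SSK22, -1.68). Without heat shock 1 of *S. cerevisiae* 1 gene of this pathway was called lower, and in *S. kudriavzevii* single libraries left out gave 0 to 2 higher and 0 to 3 lower. The counts of the lists of 6 or fewer genes moved by at most 2 when any single library was left out.

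Both partners of Mbf1 fell in *S. cerevisiae* while MBF1 rose. GCN4, the activator of amino acid synthesis genes, went from 1780.5 and 1604 to 742.4 and 697.4 CPM (log2 fold change -1.23 ± 0.110, adjusted p 9.05e-05 in edgeR's quasi-likelihood test). SPT15, which encodes the TATA-binding protein, went from 153.0 and 173.6 to 101.5 and 101.9 CPM (-0.68 ± 0.0932, adjusted p 0.000675). In *S. kudriavzevii* GCN4 (-0.09, adjusted p 0.923) and SPT15 (-0.26, adjusted p 0.606) were not called, and neither species difference was called (1.12 with an adjusted p of 0.167 for GCN4, 0.40 with 0.494 for SPT15).

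Family relatives of the factors are given by their called genes, against the same 33.7% higher and 32.7% lower over all *S. cerevisiae* genes. Of 3 genes with an HSF-type DNA-binding domain, MGA1 (1.28) rose and HMS2 (-1.52) and SFL1 (-0.60) fell in *S. cerevisiae*, and HMS2 (-1.46) alone was called in *S. kudriavzevii*. Of 7 other Yap family genes, 4 rose, most of all CAD1 and YAP5 at 0.42 each, and 1 (YAP7, -0.46) fell, and none of 5 was called in *S. kudriavzevii*. The count of 4 was 1 without control 2 and 0 without either heat shock library. Of 6 zinc finger genes related to MSN2, USV1 (2.28) and COM2 (0.52) rose and MIG2 (-0.33) fell in *S. cerevisiae*. In *S. kudriavzevii* USV1 rose (3.43) and MIG3 fell (-2.47), while COM2 and MIG2 were not called. MIG3 was not called in *S. cerevisiae* (-0.0028), and its species difference of -2.49 was called (adjusted p 0.0330 in edgeR's test of the interaction). USV1 thus rose where MSN2 and MSN4 were not called in the main fit of either species. JHD1 (0.40) was called among 3 further Jumonji genes, and GCR1 (0.79), the activator of glycolytic genes, and MSN1 (0.38) were called among the relatives of HOT1.

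**Figure D4:**
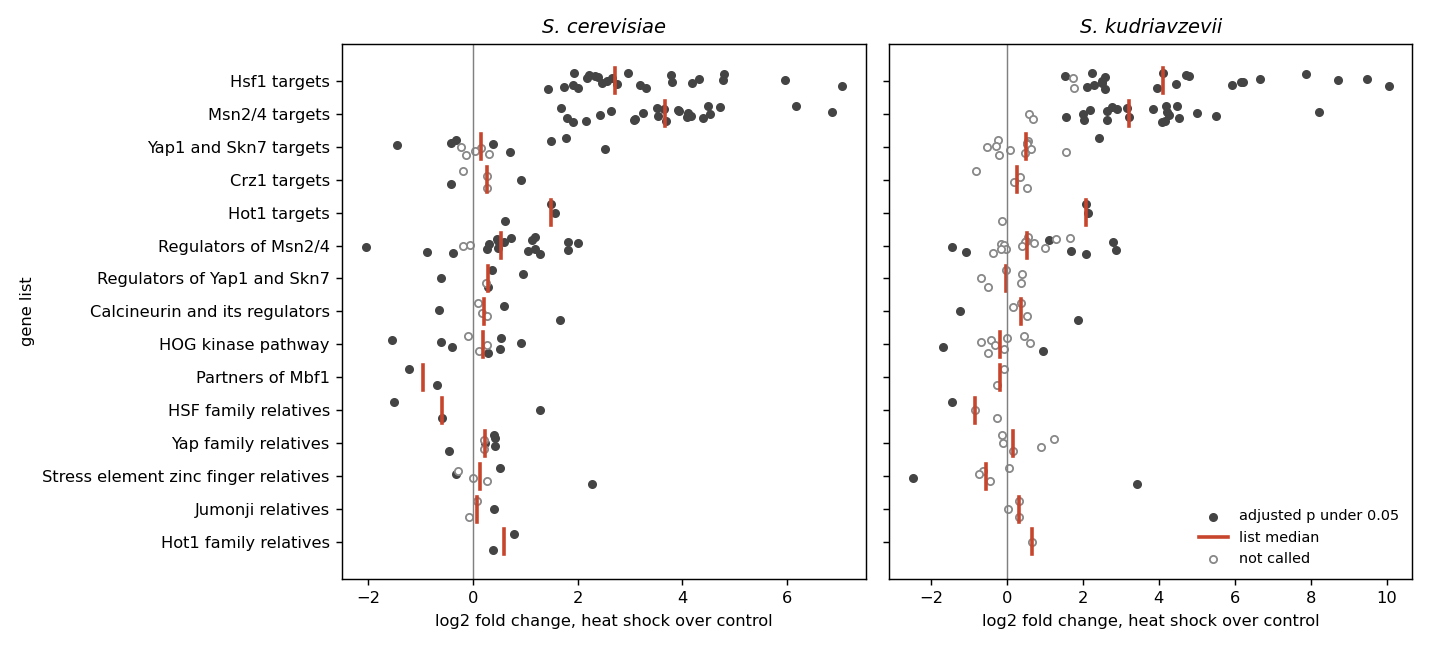
Log2 fold change, heat shock over control, of each gene in 15 lists of targets, regulators and relatives of the factors, in *S. cerevisiae* (left) and *S. kudriavzevii* (right); filled points have an adjusted p under 0.05 in edgeR and red lines are list medians. The target lists of Hsf1 and Msn2/4 lie wholly to the right of 0 in both species, with medians of 2.71 and 3.66 in *S. cerevisiae*. The medians of the other lists run from -0.96 (partners of Mbf1) to 1.48 (Hot1 targets) in *S. cerevisiae*. In *S. kudriavzevii* they run from -0.83 (HSF family relatives) to 2.09 (Hot1 targets).

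For 4 of the genes the most similar profiles were looked up among 4772 other orthologs, as the smallest distance of log2 CPM over the 8 libraries after centring each species. Nearest to MBF1 were RPN4 (distance 0.486), the transcription factor of the proteasome genes, SGT2 (0.631), a cochaperone gene, and XKS1 (0.644), the xylulokinase gene. RPN4 had log2 fold changes of 1.48 and 3.41 in *S. cerevisiae* and *S. kudriavzevii*, beside 1.55 and 3.31 for MBF1. HSF1 was nearest to DIT2 (0.170), NAB6 (0.183) and EGH1 (0.205), MSN2 to HOS2 (0.125), GYP1 (0.129) and PRP45 (0.150), and MSN4 to BUR6 (0.199), YHC3 (0.215) and ARE1 (0.256). The distances include the differences between replicates as well as those between conditions.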

How the data were processed

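Poly(A) RNA libraries of *S. cerevisiae* and *S. kudriavzevii* were grouped by species and temperature from their labels. The authors trimmed reads with Trim Galore 0.6.10, aligned them with STAR 2.7.10b (to R64, or to ZP591 in the case of *S. kudriavzevii*) and tallied them on coding sequences without strand with HTSeq 2.0.2, and deposited whole-number counts per gene with no normalization. The 5 HTSeq tallies of reads assigned to no gene were left out, and together they held between 4.01% and 6.60% of reads. Among them were reads not aligned uniquely, which made up 1.70% to 4.04% of reads. TPM was computed here from the counts and the gene lengths deposited by the authors. A further 2 deposited columns of per-sample values, whose sample names match no label, were not used.

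Each species was fitted over all its genes in R 4.3.3 with edgeR 4.0.16 (filterByExpr, TMM, glmQLFit, glmQLFTest) and Benjamini-Hochberg adjustment, with no covariate. Species differences were the interaction of species and condition over 4776 orthologs, of which 4773 were tested. All 10 genes passed the filter in both species. The standard error is the log2 fold change divided by the square root of F. Common dispersions were 0.0112 and 0.0658, so precision is limited by the spread between 2 biological replicates more than by counting: the 10 genes had 847 to 30556 counts per library in *S. cerevisiae* and 263 to 60700 in *S. kudriavzevii*. Alternatives were DESeq2 1.42.0, other size factors, no filter, a replicate block, limma 3.58.1 on log2(TPM + 1) or log2(TPM + 0.1) with a mean TPM of at least 1, and leaving out each library. The fits were tested on simulated counts. In these all genes of a fit shared a single dispersion and only a small part of the genes changed. Both settings differ from the data, so the rates below need not hold for the real fits. Planted changes of 1 on the log2 scale were called in 100% of cases for *S. cerevisiae*, 25.0% for *S. kudriavzevii* and 35.3% for the interaction. Changes of 2 were called in 100%, 100% and 98.0%.

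*S. kudriavzevii* identifiers were named by gene order along each chromosome and by length within 10% against a table of the Skud-IFO1802 assembly. This gave 5305 pairs, 4730 of equal length (215 after shuffling), and recovered all 3 of the identifiers known for HSF1, MSN2 and MSN4; the other 7 names are inferred. The genes and lists were chosen with earlier results of these data known. Named besides the 10 genes were, of each list, the 2 called genes with the largest rise and the 2 with the largest fall in *S. cerevisiae*, and the 3 most similar profiles of HSF1, MSN2, MSN4 and MBF1, taken on log2(CPM + 1). STE50, SSK22 and MIG3 were added after seeing the data, because they were called in *S. kudriavzevii*. Promoters come from the RefSeq R64 genome. Python 3.11.15, pandas 2.3.3 and matplotlib 3.10.9 were used.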

Additional observations from a re-analysis of the deposited data

Results flagged for a closer look

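The response of MBF1 differed between the species: its log2 fold change in *S. kudriavzevii* exceeded that in *S. cerevisiae* by 1.74 ± 0.367 (SE), with an adjusted p of 0.0274 in edgeR's test of the interaction over 4773 orthologs. All 4 heat shock libraries were above all 4 controls. The difference kept its sign without any single library. It lost its call without 6 of the 8, in fits where fewer of all orthologs were called, as given above.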

How the results depend on the processing

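In *S. cerevisiae* 5 of the genes were called higher and 2 lower; limma on log2(TPM + 1) and on log2(TPM + 0.1) gave 8 and 0 each, with the median of all genes at 0.26 and 0.28, and library totals gave 1 lower. Leaving out single libraries gave 4 to 6 higher and 1 to 2 lower. In *S. kudriavzevii* 2 were called higher and none lower (1 lower at an unadjusted p under 0.05, RPH1); library totals gave 1 higher, DESeq2 1 lower (RPH1), and single libraries left out 1 to 3 higher and 0 to 1 lower. Of the species differences, 1 was called in the main test, 3 with DESeq2 (MBF1, RPH1, YAP1) and 0 to 6 with single libraries left out. A lone library of a condition is then assumed to vary like the others. Calls of species differences over all orthologs became more numerous without either *S. kudriavzevii* control and fewer without any other library. The cause of these changes was not tested. With the replicate block 6 genes were called higher in *S. cerevisiae* (MSN4 added, adjusted p 0.0302) and RPH1 lower in *S. kudriavzevii* (-1.10, adjusted p 0.0148), 1 gene; it changed no other call of the 10 genes. The replicates share only a number, with correlations of their deviations of 0.51 and 0.07. Motifs were found in 7 promoters, in 6 on the strand of the gene alone and in 8 within 500 bases before the start codon, a window chosen after seeing the data. The matching shares of all promoters were not counted. No change of a called gene turned its direction under any of these alternatives. With 2 libraries per condition small changes remain undetected, most of all in *S. kudriavzevii*.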
